A study of Mus musculus with 6 samples.

Results

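The nuclear genes of mitochondrial oxidative phosphorylation (OXPHOS) were followed on arrays of microdissected head ectoderm from mouse embryos lacking the lysine acetyltransferases CBP and p300 and from wild-type embryos. A probe was taken as a member when its gene symbol in the array annotation began with Ndufa, Ndufb, Ndufc, Ndufs or Ndufv and a number, with Uqcr, with Cox4 to Cox8 or with Atp5, or was Sdha, Sdhb, Sdhc, Sdhd, Cycs or Cyc1. This gave 122 probes of 80 genes, among 45281 probes of 19057 genes on the array. Of these, 101 probes of 71 genes passed the filter for signal above background and were tested, out of 12697 probes and 7141 genes tested in all.

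By the labels, the knockout (KO) arrays held surface ectoderm of CBP/p300-/- embryos at embryonic day 9.5, and the wild-type (WT) arrays held lens placode of embryos of that age, both of a mixed FVB;129 background. Tissue was cut from frozen sections with a laser. The labels describe each genotype as 1 pool of RNA from 3 embryos, with 3 amplifications of that pool on 1 array each, while the study's text calls its replicates biological. This conflict is not settled by the sources used here. If the labels hold, the p-values measure only the spread between amplifications of 1 pool, which is technical, and not the spread between embryos. The tissue name differs with the genotype in the labels, so tissue and genotype cannot be told apart. The pools also differed at Xist, an RNA of female cells, as given below, so sex may not be separable from genotype either. The study's mutants are conditional, with Cre acting in the presumptive lens ectoderm and not in the whole embryo. The labels give no Cre line. The study's array methods name Pax6-Cre, driven by a lens enhancer and promoter of Pax6, but give the embryos as a day older than the labels do, so the age of the profiled embryos is in conflict between these sources.

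Oxidative phosphorylation takes place in the inner mitochondrial membrane. Complex I (NADH dehydrogenase) and complex II (succinate dehydrogenase) pass electrons through ubiquinone to complex III (the cytochrome bc1 complex), the small protein cytochrome c carries them to complex IV (cytochrome c oxidase), and oxygen is reduced there. Complexes I, III and IV pump protons, and complex V (ATP synthase) lets them flow back to make ATP. Most subunits are encoded in the nucleus, a few core subunits are encoded in mitochondrial DNA, and complex II is wholly nuclear.

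The probes above background (detection p-value under 0.01) numbered 14759 to 17195 on the KO arrays and 12212 to 15325 on the WT arrays. WT replicate 1 stood apart, with a raw median intensity of 141 against 85.6 to 95.5 on the other arrays and with the lowest number of probes above background. No difference was detected in the targeted genes at their brightest probes. Crebbp, which encodes CBP, had a log2 difference (KO minus WT) of 0.19 (adjusted p = 0.910), and Ep300 one of 0.18 (adjusted p = 0.963) at its brightest probe. A further Ep300 probe read 7.84, 8.47 and 6.98 on KO arrays and stayed at background on all WT arrays (adjusted p = 0.0738). Whether these probes lie in the deleted exons is not given in the sources used here, so they do not check the labels. Among cell type markers, those of lens placode had a summed linear intensity of 4316 to 5222 on KO arrays and 8005 to 8980 on WT arrays. Of 8 tested lens placode genes, 2 were called (Foxe3 and Pitx3), against 0.77% of all tested genes. Both stayed at background on all KO arrays and passed the filter through the WT arrays alone, so the filter favoured lower KO values at them. Markers of surface ectoderm summed to 11532 to 13069 on KO arrays and 18203 to 18933 on WT arrays. Red blood cell markers summed to 13705 to 14395 on KO arrays and 5734 to 7492 on WT arrays. All 5 tested genes were positive and none was called (adjusted p over all probes). Of these, Slc4a1 passed the filter through the KO arrays alone, so the filter favoured a higher KO value at it. Of 7 tested mesenchyme markers, 5 were positive, 2 were negative and 1 was called (Alx4, adjusted p = 0.0489). All 7 were above background on every KO array and 2 of them on every WT array. Alx4, Col1a1, Col3a1, Lum and Prrx1 passed the filter through the KO arrays alone, so their detection there was fixed by the filter. The called gene Alx4 was at background on all WT arrays. The summed intensity of the mesenchyme markers on the array overlapped, at 2407 to 3060 on KO arrays and 2238 to 3656 on WT arrays. Of the endothelial markers, Cldn5 read 7.94 to 9.61 on KO arrays and stayed at background on the WT arrays (adjusted p = 0.0711). It passed the filter through the KO arrays alone. Tek was above background on 1 WT array and was not tested, and Cdh5, Emcn, Kdr and Pecam1 were at background on all arrays. Optic vesicle markers summed to 1448 to 2199 on KO arrays and 851 to 4764 on WT arrays. Of 3 tested, 2 were positive, 1 was negative and none was called. Otx2 and Rax among them passed the filter through the KO arrays alone. The part of these cell types in the values below was not tested.

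The OXPHOS promoters were searched for short binding motifs of NRF1, GABP, YY1 and the estrogen-related receptors (ERR). These transcription factors are known to act on genes of the respiratory chain. Promoter windows of 300 bases (250 before the start to 50 after it, RefSeq, GRCm38.p6) were matched by Entrez gene identifier for 65 of the 80 genes. The NRF1 core GCANGCGC was found on either strand in 27 of the 65 genes (41.5%), against 10.8% of 27025 genes with a window and 23.9% of 5853 tested genes. The YY1 motif AAGATGGCG was found in 10.8% of the members, 1.64% of all genes and 4.39% of tested genes. The GABP motif CCGGAAGT was found in 6.15% of the members, 4.31% of all genes and 10.8% of tested genes, and the ERR motif TCAAGGTCA in 3.08%, 0.466% and 0.273%. In 30 of the 65 genes none of these letters was found. The 110 bases before the start are shown for 4 members whose values are described below and for Tfam, the regulator with the lowest value. They are read 5′ to 3′ on the gene's own strand, which is the minus strand for each of the 5, and capitals mark the motif (GABP in Tfam, the NRF1 core in the others).
Cycs promoter, chr6:50566570-50566679: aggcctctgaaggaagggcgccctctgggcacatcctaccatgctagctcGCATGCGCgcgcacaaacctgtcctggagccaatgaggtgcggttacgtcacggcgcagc
Ndufa6 promoter, chr15:82354292-82354401: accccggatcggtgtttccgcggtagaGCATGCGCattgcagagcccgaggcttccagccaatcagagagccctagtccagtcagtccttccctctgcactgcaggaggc
Cox7a2 promoter, chr9:79759854-79759963: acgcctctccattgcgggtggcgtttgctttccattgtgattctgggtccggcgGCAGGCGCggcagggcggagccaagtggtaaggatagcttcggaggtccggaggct
Sdha promoter, chr13:74350241-74350350: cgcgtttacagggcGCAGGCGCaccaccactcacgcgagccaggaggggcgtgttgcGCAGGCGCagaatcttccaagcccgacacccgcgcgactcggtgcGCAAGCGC
Tfam promoter, chr10:71238045-71238154: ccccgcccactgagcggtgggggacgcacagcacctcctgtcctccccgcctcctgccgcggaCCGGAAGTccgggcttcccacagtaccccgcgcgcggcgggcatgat

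The Sdha stretch held the NRF1 core 3 times, and those of Cycs, Ndufa6 and Cox7a2 held it once each. These 4 members all had log2 differences below zero at their brightest probes, so they do not represent the members. Ndufa1, also below zero, and Ndufb6, above zero, had none of the motifs in their windows and are not shown. Among tested members with a window, the median log2 difference was -0.12 over the 27 with the NRF1 core and -0.12 over the 33 without it.

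No OXPHOS probe was called, where called means an adjusted p under 0.05 and a change of 2-fold or more. The smallest adjusted p among the 101 tested probes was 0.185 (limma, Benjamini-Hochberg over all tested probes). Over all tested probes, 107 (0.843%) were called, 54 of them lower in KO (0.425%) and 53 higher (0.417%). At an unadjusted p under 0.05 there were 5 OXPHOS probes (4.95%), against 1928 of all tested probes (15.2%). These shares are over probes of all intensities, and calls were rarer among genes of high intensity, as given below. Without a fold minimum the count of OXPHOS probes at an adjusted p under 0.05 was also 0. The number of probes called over the array rested on all 6 arrays, since leaving out any 1 of them left 0 called, and the number of OXPHOS probes called was 0 in each of those fits too.

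For each gene the brightest tested probe was used. The OXPHOS genes were bright on this array. Their mean intensity lay at a median percentile of 87.7 among tested genes, 63 of 71 were above the median, and 29 were among the brightest 10%. Intensities of different probes are not amounts of RNA that can be set against each other, and brightness is given here because it sets the precision. The median standard error of the log2 difference was 0.31 over the OXPHOS genes and 0.46 over all tested genes. The 95% interval lay within a 2-fold change in either direction for 39 of 71 OXPHOS genes (54.9%), against 17.5% of all tested genes. Among genes with a mean log2 intensity of 10 or more, this was so for 76.1% of the 46 OXPHOS genes and 53.3% of all 1662 genes.

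The log2 differences of the 71 genes had a median of -0.12 (quartiles -0.29 and 0.08, range -1.69 to 0.69), beside a median of 0.03 over all tested genes. In such bulk tissue, fewer cells of a type and less RNA per cell cannot be told apart. They were below zero for 46 genes and above zero for 25, so that 64.8% were negative, against 47.7% of all tested genes. The size of the difference was under 0.5 for 61 OXPHOS genes (85.9%) and for 53.8% of all genes. An unadjusted p under 0.05 was found for 4 OXPHOS genes (Cox7a2, Ndufa6, Cycs and Ndufa1), against 13.9% of all tested genes. Each was lower in KO at its brightest probe, but the next brightest Cycs probe was higher in KO, as given below. Of the 71 genes 0 were called, against 0.77% of all tested genes. Few bright genes of any kind were called. At a mean log2 intensity of 10 or more, 1 of all 1662 tested genes was called and 103 had an unadjusted p under 0.05. Of the 46 OXPHOS genes at that level, 0 were called and 1 had such a p. The size of the difference was under 0.5 for 95.7% of these 46 genes and for 81.7% of the 1662.

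**Figure D1:**
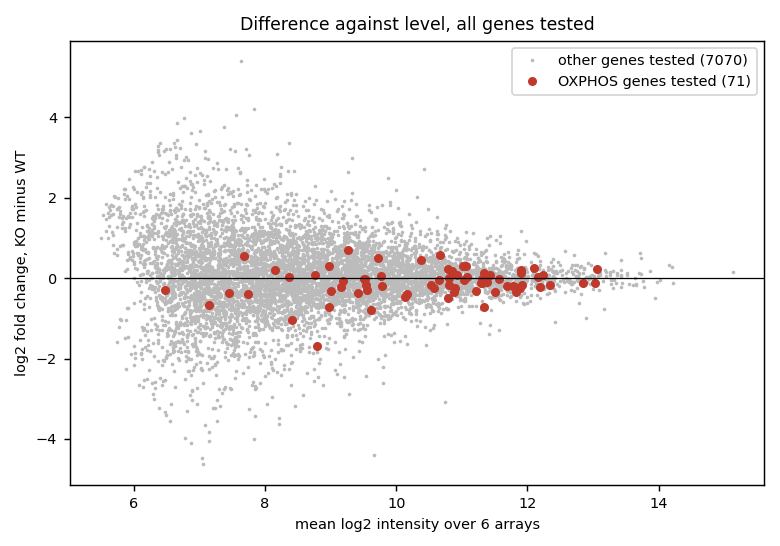
Log2 difference (KO minus WT, y axis) against the mean log2 intensity over 6 arrays (x axis) for each tested gene, with the 71 OXPHOS genes in red and the other 7070 genes in grey. Most OXPHOS genes lie at the bright end, where the grey points are narrowest, and 61 of them lie within 0.5 of zero.

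The median over OXPHOS genes of each gene's deviation from its own mean over the 6 arrays was -0.04, -0.04 and -0.02 on KO replicates 1 to 3, against 0.08, 0.08 and 0.05 on WT replicates 1 to 3. On this measure the KO arrays lay below the WT arrays without overlap, by a distance that is small beside the standard error of a typical gene. The plain median log2 intensity of the same genes did overlap. It was 10.74, 10.83 and 10.87 on KO replicates 1 to 3 and 10.83, 10.95 and 10.79 on WT replicates 1 to 3. The genes that overlapped least between genotypes were few. In 8 genes every KO array was below every WT array (11.3%, against 9.96% of all tested genes), and in 1 gene every KO array was above every WT array (1.41%, against 10.5%).

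**Figure D2:**
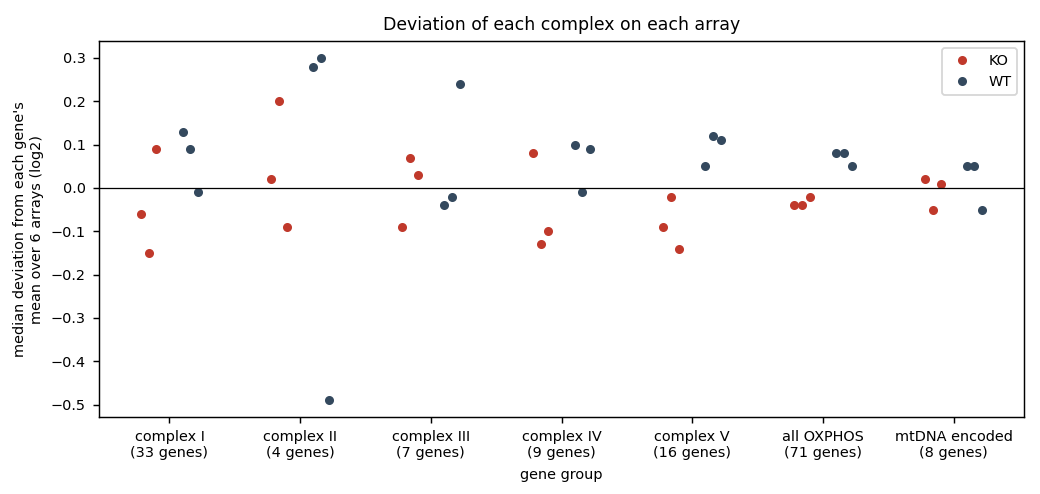
Median over the genes of each group of their deviation from the gene's own mean over 6 arrays (log2, y axis), with 1 point per array, for complexes I to V, all OXPHOS genes and the mitochondrially encoded genes (x axis). KO and WT arrays overlap for complexes I to IV and for the mitochondrially encoded genes, and do not overlap for all OXPHOS genes or for complex V, where KO lies between -0.14 and -0.02 and WT between 0.05 and 0.12.

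Complex I has a core that carries out electron transfer and proton pumping and a shell of accessory subunits. Of 34 genes on the array, 33 were tested, with 18 below zero and 15 above (median -0.03, range -1.04 to 0.69). The KO arrays had median deviations of -0.06, -0.15 and 0.09, and the WT arrays 0.13, 0.09 and -0.01, so the genotypes overlapped. The 6 nuclear core subunits measured had a median of 0.17, and the 27 accessory subunits one of -0.06. The sign of the complex I median was not fixed, at -0.11 to 0.05 over the alternatives tried.

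Among the core subunits, Ndufs7, an iron-sulfur subunit on the path to ubiquinone, had the highest value of the complex. It read 9.20, 9.97 and 9.67 on KO arrays and 9.94, 8.75 and 8.06 on WT arrays, with a log2 difference of 0.69 ± 0.53 (SE, adjusted p = 0.624). WT replicate 1 lay within the KO values, so the genotypes overlapped, and the difference was 1.20 without that array and 0.26 without WT replicate 3. Ndufv2, a subunit of the NADH-oxidising module, read 12.26, 12.00 and 12.29 on KO arrays and 12.03, 12.26 and 12.16 on WT arrays (0.03 ± 0.25, 95% interval -0.57 to 0.64). The other core subunits lay at 0.30 for Ndufv1, 0.56 for Ndufs3, -0.03 for Ndufs8 and -0.38 for Ndufs1, each with overlapping arrays. Single arrays moved these values widely. Ndufs3 was at 0.01 without WT replicate 1 and 1.24 without WT replicate 3, Ndufv1 at 0.03 without KO replicate 2 and 0.52 without KO replicate 1, and Ndufs1 at -0.77 without KO replicate 1 and -0.16 without KO replicate 3.

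Of the accessory subunits, Ndufa6, a small protein of the LYR family, had the lowest value. It read 7.71, 8.33 and 7.65 on KO arrays and 9.07, 8.93 and 8.80 on WT arrays. All KO arrays were below all WT arrays, and the log2 difference was -1.04 ± 0.30 (95% interval -1.76 to -0.31), with the smallest adjusted p of any member, 0.185, and 0.185 to 0.38 over the alternatives. Ndufa1, a small membrane subunit needed for assembly of the complex and encoded on the X chromosome, read 10.97, 11.10 and 10.87 on KO arrays and 11.67, 11.69 and 11.75 on WT arrays. Its replicates were close together in each genotype and its difference was -0.72 ± 0.24 (adjusted p = 0.234). The WT and KO pools also differed at Xist, the RNA of the inactive X chromosome, whose 4 probes read 9.53 to 10.63 on KO arrays and stayed at background on all WT arrays. The part of Xist in the value of Ndufa1 was not tested. Xist is made in female cells, so the sex of the pooled embryos may differ with genotype. This limit holds for all genes and not only for X-linked ones. The other X-linked member that was tested, Cox7b, had a difference of -0.12 ± 0.27.

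Ndufb9, an accessory subunit of the membrane arm, read 9.01, 8.59 and 8.27 on KO arrays and 9.61, 9.34 and 9.03 on WT arrays (-0.71 ± 0.32, adjusted p = 0.370). Its highest KO array lay just under its lowest WT array. Ndufb6, also of the membrane arm, was the gene with every KO array above every WT array. It read 10.54, 10.80 and 10.47 on KO arrays and 10.20, 10.00 and 10.25 on WT arrays (0.45 ± 0.25, adjusted p = 0.479), while its dimmer probe had a difference of -0.09 ± 0.38. Ndufs4, whose loss in mice gives a model of Leigh syndrome, had 4 tested probes with differences of -0.35, -0.38, -0.20 and -0.48, and KO arrays below WT arrays without overlap at the brightest of them. Ndufs6, a subunit near the NADH-oxidising module, had values of 0.21 and -0.23 at its probes. Ndufb8 had the brightest probe of the complex, at 13.17, 13.04 and 13.32 on KO arrays and 12.89, 12.89 and 13.08 on WT arrays (0.22 ± 0.25). Ndufa4, which carries a complex I symbol but is now regarded as a subunit of complex IV, read 11.63, 11.74 and 11.61 on KO arrays and 11.79, 12.04 and 12.18 on WT arrays (-0.34 ± 0.25, adjusted p = 0.604). Its KO arrays were all below its WT arrays.

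Complex II oxidises succinate and so belongs to the TCA cycle too. Its 4 genes were all tested, with 1 below zero and 3 above (median 0.11, and -0.13 to 0.21 over the alternatives). Sdha, the flavoprotein subunit that binds succinate, read 6.12, 7.40 and 6.93 on KO arrays and 7.48, 8.39 and 6.59 on WT arrays (-0.67 ± 0.57, adjusted p = 0.663). The spread within each genotype was wide and the arrays overlapped, and the difference was -1.07 without WT replicate 3 and -0.21 without WT replicate 2. Sdhb, the iron-sulfur subunit, had a difference of 0.20 ± 0.51 and turned to -0.31 without WT replicate 3, which read 7.0 against 8.49 and 8.64 on the other WT arrays. Of the membrane anchors, Sdhc read 12.29, 12.25 and 12.15 on KO arrays and 12.04, 12.20 and 11.69 on WT arrays (0.25 ± 0.26), and Sdhd had a difference of 0.01 ± 0.27.

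Of the 8 complex III genes on the array, 7 were tested, with 5 below zero and 2 above (median -0.16, range -0.39 to 0.23). The sign of this median was not fixed, at -0.27 with median scaling and 0.01 without KO replicate 1. The core proteins Uqcrc1 and Uqcrc2 had differences of 0.23 ± 0.39 and -0.24 ± 0.28, and Uqcrc1 turned to -0.13 without WT replicate 1. The Rieske iron-sulfur protein Uqcrfs1 read 7.71, 7.95 and 7.0 on KO arrays and 7.27, 8.06 and 8.48 on WT arrays (-0.39 ± 0.43, adjusted p = 0.754), and its difference was -0.72 without WT replicate 1 and -0.11 without KO replicate 3 or WT replicate 3. Cyc1, cytochrome c1, read 8.28, 8.28 and 8.62 on KO arrays and 7.35, 8.35 and 9.35 on WT arrays (0.04 ± 0.53), and its KO arrays fell inside the range of its WT arrays. Uqcr10, a small subunit with the brightest probe of the complex, had a difference of -0.16 ± 0.34. No gene of complexes II and III separated the genotypes without overlap. Uqcrq did not pass the filter.

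Cycs, the somatic cytochrome c, gave opposite values at its 3 tested probes, all annotated to the same transcript. The brightest read 9.51, 9.24 and 8.90 on KO arrays and 10.40, 9.87 and 9.77 on WT arrays (-0.80 ± 0.31, adjusted p = 0.305), with all KO arrays below all WT arrays. The next read 9.91, 9.81 and 10.19 on KO arrays and 9.33, 9.48 and 8.67 on WT arrays (0.81 ± 0.32, adjusted p = 0.307), with all KO arrays above all WT arrays. The last read 9.57, 7.56 and 6.50 on KO arrays and 7.62, 5.16 and 8.32 on WT arrays (0.84 ± 1.08), without separation. The direction of Cycs is therefore not settled by these probes, and the gene is known to have processed pseudogenes that probes could also detect.

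**Figure D3:**
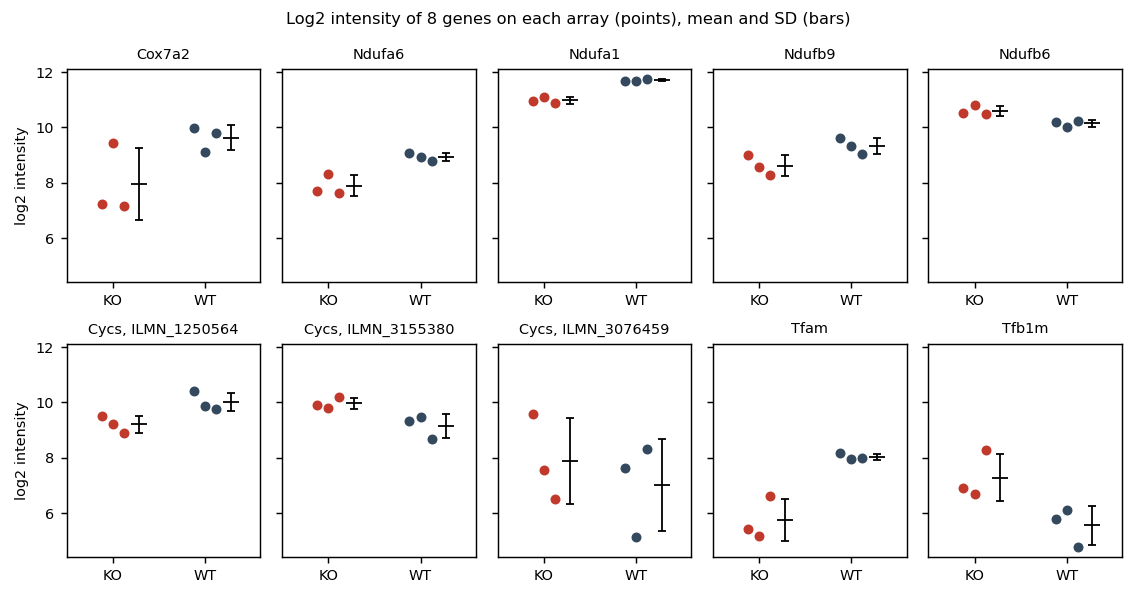
Log2 intensity (y axis) on each KO and WT array (x axis) for 8 genes, 3 probes of Cycs shown apart, with points for arrays and bars for the mean and SD of 3 arrays. The first 2 Cycs probes separate the genotypes in opposite directions, and KO replicate 2 of Cox7a2, at 9.45, lies within the WT values of 9.13 to 9.99.

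In complex IV the catalytic subunits are encoded in mitochondrial DNA, and several nuclear subunits have a widely expressed form and forms of muscle, lung or testis. Of 16 genes, 9 were tested, with 6 below zero and 3 above (median -0.12, and -0.28 to -0.03 over the alternatives, range of the genes -1.69 to 0.19). The widely expressed forms were above background and the tissue forms mostly were not. Cox4i1 read 11.07, 10.90 and 11.05 on KO arrays and 11.15, 10.96 and 11.08 on WT arrays (-0.05 ± 0.24, 95% interval -0.63 to 0.53). Its relative Cox4i2, known from lung and from hypoxic cells, read 5.51, 5.0 and 5.90 on KO arrays and 7.89, 4.95 and 7.14 on WT arrays and was not tested, since it was above background on 1 KO and 2 WT arrays. Cox6a1 had a difference of 0.19 ± 0.31 and Cox6b1 one of 0.08 ± 0.25, while the muscle form Cox6a2 was at background on all 6 arrays and the testis form Cox6b2 was not tested. The forms Cox7a1, Cox7b2, Cox8b and Cox8c were at background on all 6 arrays as well.

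**Figure D4:**
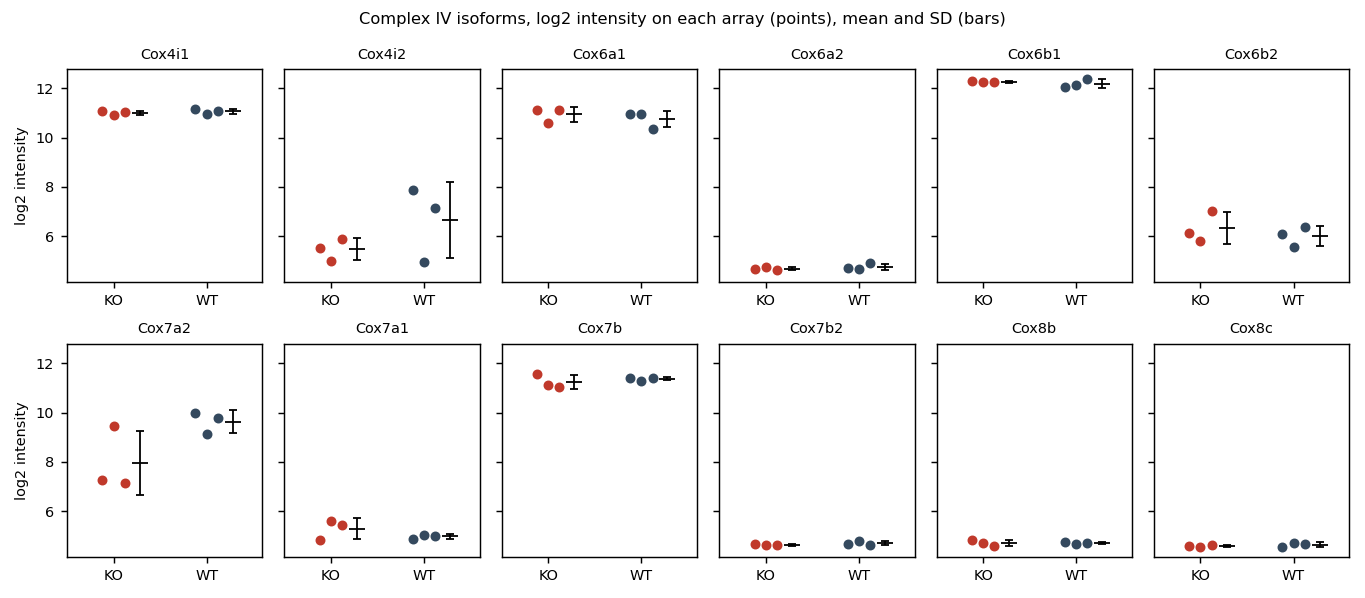
Log2 intensity (y axis) of the brightest probe of 12 complex IV paralogues on each KO and WT array (x axis), with points for arrays and bars for the mean and SD of 3 arrays. Cox4i1, Cox6a1, Cox6b1, Cox7a2 and Cox7b are above background in both genotypes, and Cox6a2, Cox7a1, Cox7b2, Cox8b and Cox8c are at background throughout.

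Cox7a2, the widely expressed form of subunit VIIa, had the lowest log2 difference of all members, -1.69 ± 0.68 (95% interval -3.33 to -0.04, adjusted p = 0.318). It read 7.25, 9.45 and 7.16 on KO arrays and 9.99, 9.13 and 9.79 on WT arrays. KO replicate 2 lay within the WT values, so the genotypes overlapped, and the difference ranged from -2.47 to -1.31 as single arrays were left out. Cox7a2l, a factor that joins complexes III and IV in supercomplexes, had a difference of -0.29 ± 0.48 that turned to 0.19 without WT replicate 3. Cox6c, with the brightest probe of the complex, read 12.80, 12.81 and 12.75 on KO arrays and 12.99, 12.92 and 12.84 on WT arrays (-0.13 ± 0.23, adjusted p = 0.861). Its arrays separated without overlap although the difference was small.

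Complex V had the narrowest range of values of the 5 complexes. All 16 of its genes were tested, 15 had a log2 difference below zero and 1 above, and the range was -0.38 to 0.04 (median -0.19). Among all genes with a mean log2 intensity of 10 or more, 48.7% were below zero, with a median of 0.01. The complex V genes lay at median deviations of -0.09, -0.02 and -0.14 on KO arrays, against 0.05, 0.12 and 0.11 on WT arrays. No gene of the complex was called, none had an unadjusted p under 0.05 at its brightest probe, and for 13 of 16 the 95% interval lay within a 2-fold change. The median stayed below zero under each alternative, at -0.33 to -0.15. The genes are not replicates of each other and share the same 6 arrays, so no test is given for the group.

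The parts of complex V lay close together. The 5 subunits of the catalytic F1 head had a median of -0.19, the 2 genes of the proton-carrying c ring measured here one of -0.17, the 4 genes of the peripheral stalk one of -0.13 and the other membrane subunits one of -0.21. Within F1, Atp5d, the delta subunit, had the lowest value. It read 9.39, 9.42 and 8.89 on KO arrays and 9.98, 9.33 and 9.54 on WT arrays (-0.38 ± 0.31, adjusted p = 0.650), with overlap. Atp5b, the catalytic beta subunit and the brightest probe of the complex, read 12.93, 13.09 and 12.91 on KO arrays and 13.08, 13.12 and 13.09 on WT arrays (-0.12 ± 0.24, 95% interval -0.69 to 0.45). Atp5a1, Atp5c1 and Atp5e, which encode the alpha, gamma and epsilon subunits, had differences of -0.02, -0.19 and -0.19. Atp5g3, a gene of the c ring, read 11.31, 11.47 and 11.22 on KO arrays and 11.48, 11.69 and 11.83 on WT arrays (-0.33 ± 0.25, adjusted p = 0.617). It was the gene of this complex with all KO arrays below all WT arrays, and Atp5g2, which encodes the same mature protein, had a difference of -0.01 ± 0.36. Atp5pb, a stalk subunit, had the value above zero, 0.04 ± 0.29.

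**Figure D5:**
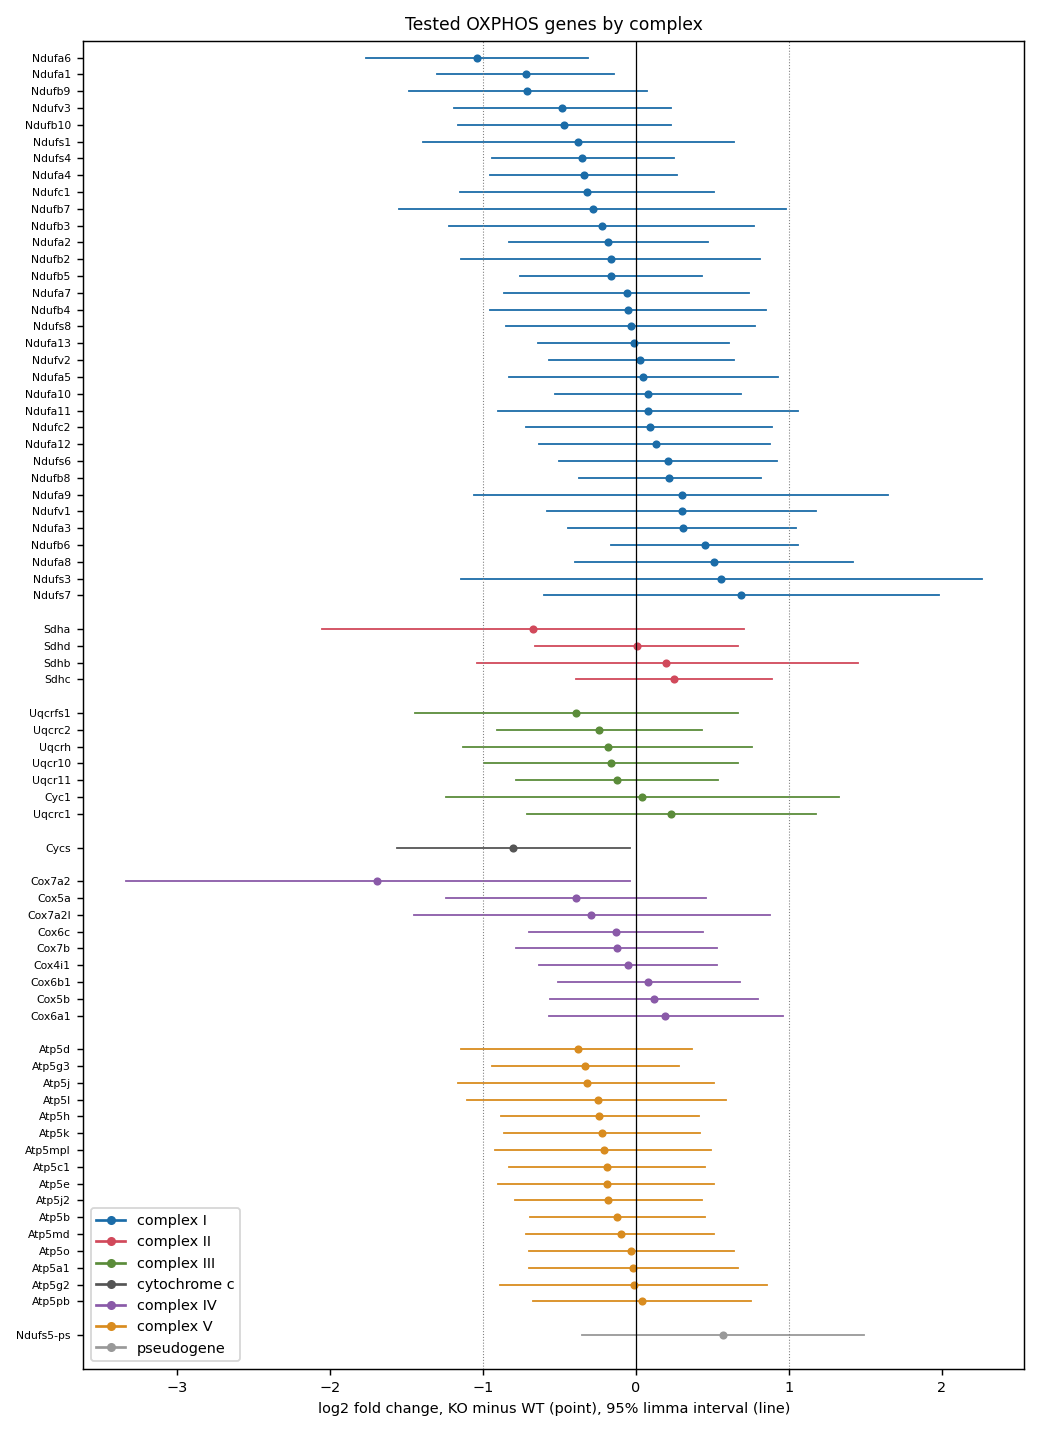
Log2 difference (KO minus WT, point) with its 95% limma interval (line) for the 71 tested OXPHOS genes, ordered by value within each complex, with dotted lines at a 2-fold change. Intervals of most genes cross zero, and 15 of 16 complex V points lie left of it.

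Several probes of a gene did not always give the same sign. Of 23 genes with more than 1 tested probe, 14 had the same sign at all of them and 9 did not (Ndufa5, Ndufb6, Ndufc2, Ndufs6, Sdhb, Cox5b, Atp5a1, Atp5pb and Cycs). The widest gap besides that of Cycs was at Atp5a1, with -0.02 ± 0.28 at the brightest probe and 1.05 ± 1.01 at the dimmer one. Ndufs5-ps, a pseudogene whose symbol met the rule, read 10.88, 10.71 and 11.28 on KO arrays and 10.68, 10.75 and 9.73 on WT arrays (0.57 ± 0.38) and was kept out of the complex I counts.

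The subunits encoded in mitochondrial DNA differed little. The 8 measured had log2 differences of -0.17 to 0.18 (median -0.04), and all 8 had a 95% interval within a 2-fold change. COX2, a catalytic subunit of complex IV, read 13.35, 13.35 and 13.41 on KO arrays and 13.56, 13.53 and 13.40 on WT arrays (-0.13 ± 0.23). ND5, of the proton-pumping arm of complex I, read 12.61, 12.46 and 12.49 on KO arrays and 12.35, 12.51 and 12.17 on WT arrays (0.18 ± 0.25). KO and WT arrays overlapped for each of the 8.

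Among regulators of mitochondrial gene expression, 19 of 27 genes were tested, none was called, and 12 were below zero and 7 above (median -0.20). Tfam, which packages mitochondrial DNA and starts its transcription, had the lowest value. It read 5.45, 5.19 and 6.62 on KO arrays and 8.17, 7.96 and 7.99 on WT arrays, with 1 KO array and all 3 WT arrays above background. The fitted difference was -2.28 ± 0.43 (adjusted p = 0.0798, and 0.0798 to 0.212 over the alternatives). It was -1.40 without background correction and -1.72 with an offset of 50. The other tested Tfam probe gave -2.19 ± 0.38 (adjusted p = 0.0694). Both probes entered the fit through the WT arrays alone, so the filter itself favoured lower KO values at them. All KO arrays were below all WT arrays at both, as was the case for 9.96% of all tested genes. Tfb1m, a methyltransferase of mitochondrial ribosomal RNA, read 6.90, 6.69 and 8.28 on KO arrays and 5.80, 6.12 and 4.78 on WT arrays (1.73 ± 0.57, adjusted p = 0.234), with 1 WT array above background. Tfb1m entered the fit through the KO arrays alone, so the filter favoured a higher KO value. Its difference was 1.02 without background correction, 1.21 without KO replicate 3 and 1.28 without WT replicate 3. Nrip1, a corepressor of oxidative genes, had a difference of -1.43 ± 0.32 (adjusted p = 0.118) with all KO arrays below all WT arrays. Nrf1 had one of 0.32 ± 0.31, which was 0.10 without WT replicate 3. Gabpa, the DNA-binding subunit of GABP, had one of -0.84 ± 0.62, which was -0.35 without WT replicate 1. Gabpa entered the fit through the WT arrays alone, with 2 KO arrays above background. The coactivator gene Ppargc1a was at background on all arrays, and Esrra was not tested.

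Of 45 assembly factors on the array, 33 were tested and none was called, with 18 below zero and 15 above (median -0.04). An unadjusted p under 0.05 was found for 5 of the 33, 2 lower in KO and 3 higher, a share near the 13.9% of all tested genes. Cox20, a chaperone of the COX2 subunit, read 7.80, 8.25 and 8.20 on KO arrays and 9.38, 8.91 and 9.26 on WT arrays (-1.10 ± 0.28, adjusted p = 0.148). Coa6, a factor for copper delivery to complex IV, read 7.95, 8.03 and 7.68 on KO arrays and 6.47, 6.34 and 6.86 on WT arrays (1.33 ± 0.28, adjusted p = 0.0975), with 2 WT arrays above background and a value of 0.88 without background correction. Neither passed the threshold, both were chosen after their values were seen, and Coa6 entered the fit through its KO arrays alone. The genotypes did not overlap in either gene. This was so for 3 of the 33 factors with KO below WT and for 6 with KO above WT. Over all tested genes the shares were 9.96% and 10.5%. Ndufaf1, an assembly factor of complex I, had a difference of -2.16 ± 0.79 (adjusted p = 0.278) with 2 KO arrays above background. It entered the fit through the WT arrays alone. Cox16 stayed at background on all WT arrays, so no fold is given for it.

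The TCA cycle and pyruvate dehydrogenase list had 15 of 18 genes tested, none called, 7 below zero and 8 above (median 0.26). Dlst, a subunit of the oxoglutarate dehydrogenase complex, read 10.92, 10.76 and 10.65 on KO arrays and 8.92, 9.62 and 10.44 on WT arrays (1.11 ± 0.43, adjusted p = 0.296), and the difference was 0.74 without WT replicate 1. Of the inner membrane carriers and porins, 8 of 14 were tested and none was called (median 0.15). The ADP/ATP carriers lay on opposite sides. Slc25a4 read 11.51, 11.53 and 11.55 on KO arrays and 11.38, 11.42 and 11.07 on WT arrays (0.24 ± 0.25, adjusted p = 0.728), and the X-linked Slc25a5 read 10.56, 10.63 and 10.35 on KO arrays and 11.26, 11.12 and 10.83 on WT arrays (-0.56 ± 0.26, adjusted p = 0.393). In both the genotypes did not overlap, as was the case for 9.96% of all tested genes with KO below WT and 10.5% with KO above WT.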

How the data were processed

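Arrays were Illumina MouseWG-6 v2 BeadChips, 3 KO and 3 WT, all on 1 BeadChip, with RNA amplified by the NuGEN Pico system. The authors deposited, per array, bead summary intensity before normalization and a detection p-value and a count of beads for each probe. They also deposited processed intensity values, made in GenomeStudio with cubic spline normalization per the study's methods and used here as an alternative.

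From the deposited intensity, background was corrected by normexp with detection p-values (offset 16), followed by log2 transformation and quantile normalization. A probe entered the fit when the 3 arrays of KO, of WT or of both each had detection p under 0.01 for it. Where a probe entered through KO alone or WT alone, the filter favoured a higher value in that genotype. Ndufs3 was such a gene, through the KO arrays. A mean per genotype was fitted with limma 3.58.1 in R 4.3.3 (lmFit and eBayes), two-sided, with Benjamini-Hochberg adjustment over all 12697 probes, and the fit was tested on simulated data. Gene values are those of the brightest tested probe. The number of arrays limits the precision.

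Members and lists were chosen with earlier results of these data known. Named genes were the highest, lowest and brightest of each complex, complex IV and c ring paralogues, Sdh, complex I core, F1 and Cycs genes, Cyc1, Ndufs4, Ndufs6, Uqcrc1, Uqcrc2, Uqcrfs1, Nrf1, Gabpa, Tfam, Ppargc1a, Esrra, Slc25a4 and Slc25a5. Ndufa1, Ndufb6, Ndufb9, Tfb1m, Nrip1, Cox20, Coa6, Cox16, Ndufaf1, Dlst, COX2, ND5, Ndufs5-ps and Cox7b's place on the X chromosome were chosen after their values were seen. Of all probes, 34885 had 1 symbol, 18 several and 10378 none.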

Additional observations from a re-analysis of the deposited data

How the results depend on the processing

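No OXPHOS probe was called under any alternative tried. The number of OXPHOS probes at an unadjusted p under 0.05, 5 as reported, was 10 without a filter on dim probes, 2 with median scaling in place of quantile normalization, 2 with the replicate number as a block, and 1 to 4 with single arrays left out. The number of all probes called, 107 as reported, was 66 without the filter, 2 with detection required on all 6 arrays, 36 without background correction, 53 with an offset of 50, 0 with the replicate block, and 0 with any single array left out. The replicate numbers do not pair the samples (correlations of deviations -0.013, 0.001 and -0.026). Median scaling moved the split of calls to 29 lower and 63 higher, beside 54 and 53, and the processed table gave 54 lower and 79 higher. Under median scaling the OXPHOS median was -0.23, that of complex IV -0.28 and that of complex V -0.33, with the median of all tested probes at 0.06. The complex V median was -0.20 to -0.15 with single arrays left out. Quantile normalization before the log2 step, an order tried after seeing the data, changed no OXPHOS count.

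Of 745 values of 50 named genes under the alternatives, 717 kept their direction and side of the threshold and 28 turned in sign, all in genes with small differences. Median scaling gave -0.12 for Atp5pb, -0.04 for Cox6b1, -0.11 for Ndufv2 and -0.15 for Sdhd, and omitting background correction gave 0 for Cyc1. With single arrays left out, the ranges were -0.17 to 0.17 for Atp5a1, -0.23 to 0.25 for Atp5g2, -0.17 to 0.21 for Atp5pb, -0.10 to 0 for Cox4i1, 0 to 0.37 for Cox6a1, -0.65 to 0.19 for Cox7a2l, -0.46 to 0.52 for Cyc1, -0.16 to 0.20 for Ndufs8, -0.03 to 0.12 for Ndufv2, -0.31 to 0.50 for Sdhb, -0.15 to 0.13 for Sdhd, -0.32 to 0.07 for Uqcr10 and -0.13 to 0.53 for Uqcrc1. The cause was not tested. By the labels each genotype is 1 pool, and tissue and genotype cannot be told apart. With the difference at Xist, sex may not be separable from genotype either.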
